A study of Ictalurus furcatus with 16 samples.

Results

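The genes described here move, store, build and burn fatty acids, or were named for receptors and carriers of lipoproteins, and they were measured in testes of the blue catfish (Ictalurus furcatus), a river fish of North America. They were chosen by name: symbols beginning with elovl, fads, acsl, acsbg, acss, fabp, plin, cpt1, cpt2, acox, acad, apoa, apoba, apobb, apoc, apod, apoe, apom, ldlr, lpl or scarb. Among 26356 genes counted, 73 had such a symbol, and 44 of them had at least 10 counts in at least 4 libraries. A further filter on low counts, applied to every gene of the tables, left 43 of the 44 for testing among 15979 genes and dropped acsl1b, a long-chain acyl-CoA synthetase. RNA was sequenced from 16 testes, 4 fish at each of ages 2, 4, 7 and 9. The unit of age is not given in the labels, all fish were males with no treatment named, and age 2 is the study's control group.

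Fatty acids enter a cell free or inside lipoproteins, are tied to coenzyme A by acyl-CoA synthetases, and are then carried by binding proteins, stored in lipid droplets, lengthened and desaturated, or broken down. For breakdown in mitochondria, CPT1 on the outer membrane joins the acyl chain to carnitine, CPT2 on the inner membrane takes the carnitine off again, and acyl-CoA dehydrogenases start each round of beta-oxidation. Germ cell membranes of the vertebrate testis are rich in long polyunsaturated fatty acids, which the ELOVL elongases and FADS desaturases make, and Sertoli cells burn fatty acids and digest the cell remnants that spermatids shed. Ray-finned fish often keep 2 or more copies of a gene that mammals have once, marked a, b or c in the symbols.

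Sequencing depth ran from 20541746 to 24732597 fragments per library. Transcripts received from 5136717 to 8081160 of them (23.8% to 34.8%), and ribosomal RNA made up between 10.9% and 38.2% of these. The 44 genes took between 0.216% and 0.506% of the assigned fragments, and scarb2a and scarb2b alone held between 45.1% and 70.2% of that. Levels are CPM, counts scaled to a common library size, with sizes adjusted by the trimmed mean of M values (TMM). The 4 values of an age are given in the order of replicates 1 to 4, and changes are log2 fold changes from edgeR's quasi-likelihood fit. Their standard errors (SE) were derived, as the size of the change divided by the square root of the F statistic of its test. A gene is said to have risen or fallen where its Benjamini-Hochberg adjusted p over all 15979 genes lay under 0.05. Since each library holds RNA from the mixed cells of a testis, fewer cells of a type and less RNA per cell cannot be told apart. The sample titles do not say which part of the testis was taken.

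Age 2 replicate 1 stood apart from the rest of its age group. Its score on the first principal component (62.4% of variance, from 500 genes) was -8.97, against 56.0 to 77.9 for the other age 2 libraries and -29.6 to 7.01 for the 12 older ones. For 27 of the 43 tested lipid genes (62.8%) its level fell within the range of the older libraries and outside that of the other 3 age 2 testes, which was also so for 59.0% of all genes tested. Summed levels of markers of several testis cell types moved with this split. The summed level of 24 spermatid and sperm tail genes, 3 of them at 0 in every library (ropn1l, dnah2 and ccdc39), was 2872 CPM in age 2 replicate 1, 579 to 743 in the other age 2 testes and 914 to 4472 in the older ones. Highest of them in that library were cfap52, rsph9 and dnah1, at 887, 760 and 584 CPM. Against the sum, dnah3 was at 297 to 346 CPM in the other age 2 testes and 84.9 to 223 in the older ones. Likewise dnah9 was at 61.2 to 127 CPM in the other age 2 testes and 22.5 to 50.3 in the older ones. The sum of 12 Sertoli cell genes, 3 of them at 0 throughout (dmrt1, wt1a and wt1b), was 395 CPM in that library, 2802 to 7726 in the others of its age and 517 to 1736 at the older ages. Most of this difference was gsdf, at 101 CPM in that library, 1934 to 6708 in the others of its age and 95.9 to 511 at the older ages. At low levels sox9a and inha split likewise. For amh, cldn11a, cldn11b, fshr, inhbb and nr0b1 the other age 2 testes overlapped with the older ones. The part of these cell types in the changes below was not tested. Counts of calls, and the change of each lipid gene called, are given with and without that library.

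Against age 2, the lipid genes that rose were led by one of the carnitine palmitoyltransferases, cpt1ab, by its partner cpt2, by the lysosomal membrane protein genes scarb2a and scarb2b and by the fatty acid binding protein gene fabp7a. These 5 rose, and ldlrad4a fell, at each of ages 4, 7 and 9. The age 4 testes gave 7 calls among the 43 genes, 5 of them up and 2 down (16.3%, against 18.6% of all genes, of which 6.66% higher and 12% lower). Ages 7 and 9 each gave 11 calls (25.6%), 8 higher and 3 lower, where the share over all genes was 27.3% for age 7 (11.5% up, 15.9% down) and 18.4% for age 9 (6.82% up, 11.5% down). The median log2 fold change of the 43 was 0.14, 0.27 and 0.16 at ages 4, 7 and 9, beside -0.046, -0.079 and -0.031 over all genes tested. The shares at ages 4 and 7 lay near the background. In all, 14 distinct genes passed at 1 or more ages, 10 of them higher and 4 lower than at age 2, and the other 29 did not. The 3 comparisons share the age 2 libraries, so they are not independent of each other.

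The number of calls depended on which age 2 testes were used. Without age 2 replicate 1, 21 of 44 genes passed at age 4, 24 at age 7 and 19 at age 9, where the share over 16597 genes tested was 45.7%, 47.8% and 42.3%, and every gene called with all libraries was among them. Genes that passed only in that fit are not listed here, so a gene without a call is not shown to be unchanged. Leaving out age 2 replicate 2, 3 or 4 instead gave 2, 0 and 2 calls at age 4 (3.91%, 0.973% and 2.65% of all genes passed), 6 with each at age 7 (13%, 12% and 14.2%), and 6, 5 and 8 at age 9 (7.12%, 7.12% and 10.5%). Without age 4 replicate 3 there were 0 calls at age 4 (0.00605% of all genes). There were 7 at age 7 without its replicate 1 (14.6%), and 7, 6, 7 and 7 at age 9 without its replicates 1 to 4 (10.3%, 8.91%, 8.88% and 14.3%). In a fit of 2 ages alone there were 0, 4 and 5 calls at ages 4, 7 and 9 (0%, 5.44% and 6.62% of all genes), those of cpt1ab, scarb2a, scarb2b and elovl2 at age 7 and of cpt1ab, scarb2a, scarb2b, fabp7a and elovl5 at age 9.

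**Figure D1:**
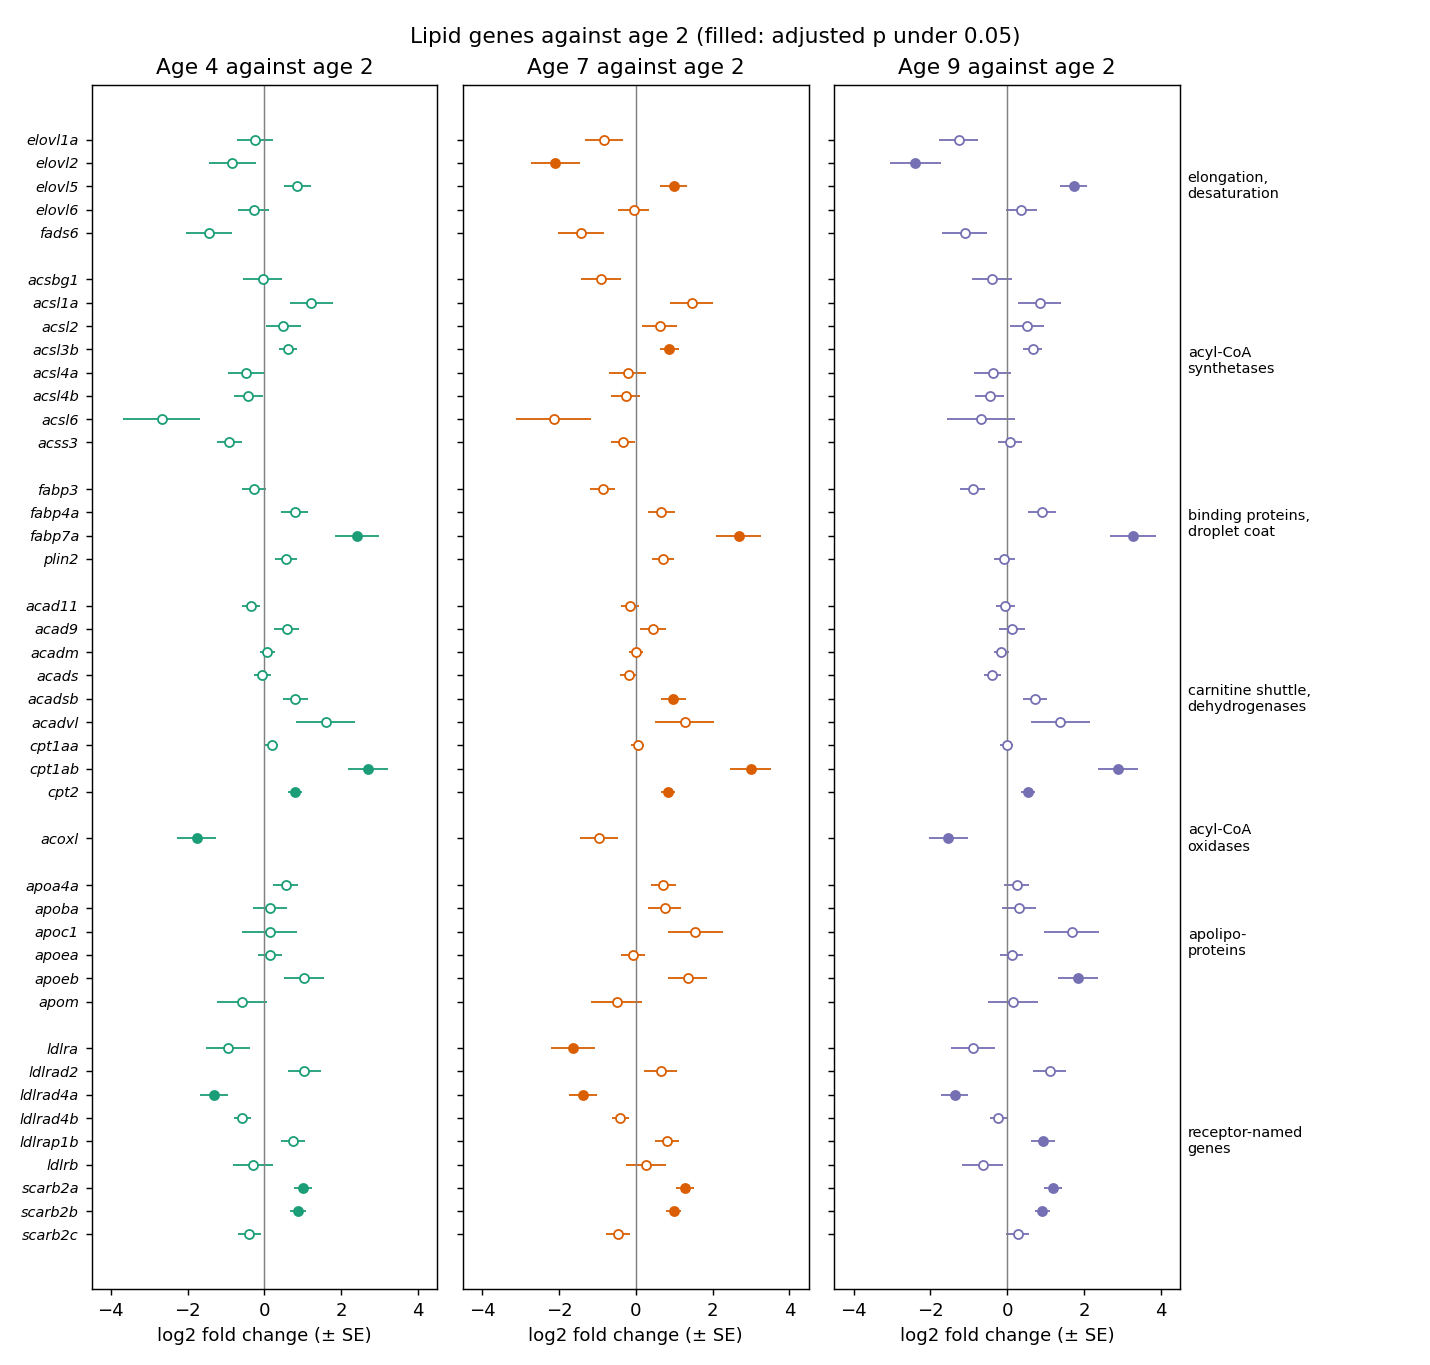
Log2 fold change (x axis) of 42 of the 43 tested lipid genes (y axis, grouped by role) at ages 4, 7 and 9 against age 2, with bars for 1 SE, derived from edgeR's F statistic. Filled points have an adjusted p under 0.05 over all genes tested by edgeR. The filled points are 7 at age 4 and 11 at each of ages 7 and 9, and cpt1ab and fabp7a lie farthest to the right among them.

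Of the 3 carnitine palmitoyltransferase genes tested, 2 rose, cpt1ab at a low level and cpt2, and the more abundant cpt1aa did not pass. The mitochondrial carnitine palmitoyltransferase gene cpt1ab, a fish copy of the CPT1A enzyme that controls the entry of long chains into mitochondria, stood at 1.44, 1.53, 0.583 and 0.502 CPM at age 2 and at 4.25, 5.87, 8.64 and 8.36 CPM at age 4. Its level was 8.51, 5.76, 10.6 and 7.94 CPM at age 7 and 8.89, 9.53, 10.6 and 1.8 CPM at age 9. All 4 age 2 testes, replicate 1 included, lay below all 12 older ones, and age 9 replicate 4 was the lowest of the older libraries. Age 2 replicate 2 and age 9 replicate 4 had 11 counts each, so their order in CPM rests on the scaling of library sizes. At age 2 the gene had 9, 11, 4 and 3 counts, so it met the limit of 10 counts in 4 libraries only through the older testes. The level of cpt1ab rose by 2.71 ± 0.52 at age 4 (log2, SE, adjusted p = 0.0128), 2.99 ± 0.52 at age 7 (adjusted p = 0.00513) and 2.89 ± 0.52 at age 9 (adjusted p = 0.00415). Without age 2 replicate 1 these changes were 2.98, 3.27 and 3.14. The age 4 call ended without age 2 replicate 3 or age 4 replicate 3 (adjusted p = 0.0501 to 0.0542), and those at ages 7 and 9 held without any 1 library. These levels are low in reads: 594 counts in all over the 16 libraries, all of them on 1 of the 5 transcripts listed for the gene.

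The other copy, cpt1aa, did not pass at any age. It stood at 195, 163, 127 and 137 CPM at age 2 and between 130.1 and 188 CPM in the 12 older testes, so the ages overlapped. Its log2 fold changes were 0.19 ± 0.17, 0.049 ± 0.17 and -0.0082 ± 0.17 at ages 4, 7 and 9. A difference between the copies was tested on the log2 ratio of cpt1aa to cpt1ab in each library, a comparison added after the values were seen and described with the other pairs below.

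The inner membrane enzyme gene cpt2 stood at 60.4, 40.3, 36.3 and 41.5 CPM at age 2, 71.9, 77.8, 78.3 and 81.6 at age 4, 78.2, 79, 87.4 and 74.6 at age 7 and 60.9, 76.4, 59.6 and 62.7 at age 9. Ages 4 and 7 lay above all age 2 libraries, and at age 9 the lowest testis was just under age 2 replicate 1. It rose by 0.79 ± 0.17, 0.84 ± 0.17 and 0.54 ± 0.17 at the 3 ages (log2, SE; adjusted p = 0.0153, 0.00688 and 0.0404). Without age 2 replicate 1 these changes were 1.05, 1.11 and 0.77. At age 4 the call ended without age 2 replicates 3 or 4 or age 4 replicate 3 (adjusted p = 0.0507 to 0.0586), and at age 9 without age 2 replicates 2, 3 or 4 or age 9 replicates 1, 2, 3 or 4 (adjusted p = 0.0598 to 0.126). The age 9 call also ended with no filter on low counts and with ribosomal RNA genes left out (adjusted p = 0.082 and 0.0553).

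Of the 6 acyl-CoA dehydrogenase genes, 1 passed, at 1 age. That was acadsb, whose enzyme acts on short branched chains from isoleucine breakdown, and it rose at age 7 by 0.98 ± 0.32 (adjusted p = 0.0348). It stood at 59.6, 18.1, 22.4 and 18.6 CPM at age 2 and 57.4, 63.4, 45.8 and 67.7 CPM at age 7, so that age 2 replicate 1 lay inside the age 7 range and the other 3 far below it. Without that library the rise was 1.66. The call ended without age 2 replicates 2, 3 or 4 or age 7 replicates 1, 2 or 4 (adjusted p = 0.0637 to 0.111). The dehydrogenases for medium and short straight chains, acadm and acads, stood at 46 ± 8.66 and 19.2 ± 3.03 CPM (SD, n = 4) at age 2 and at 41.3 ± 6.11 and 14.7 ± 1.82 CPM at age 9, with log2 fold changes of -0.15 ± 0.19 and -0.39 ± 0.22 that did not pass. The dehydrogenase gene acad11 had 129.7 ± 38.7 CPM at age 2 and 126 ± 11.9 CPM at age 9. The very long chain enzyme gene acadvl was near the lower limit of detection, at 2.4, 0.417, 0 and 0.334 CPM at age 2. The last of the 6, acad9, whose protein also helps assemble respiratory complex I in mammals, ranged from 4.37 to 15.4 CPM over all libraries and did not pass.

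**Figure D2:**
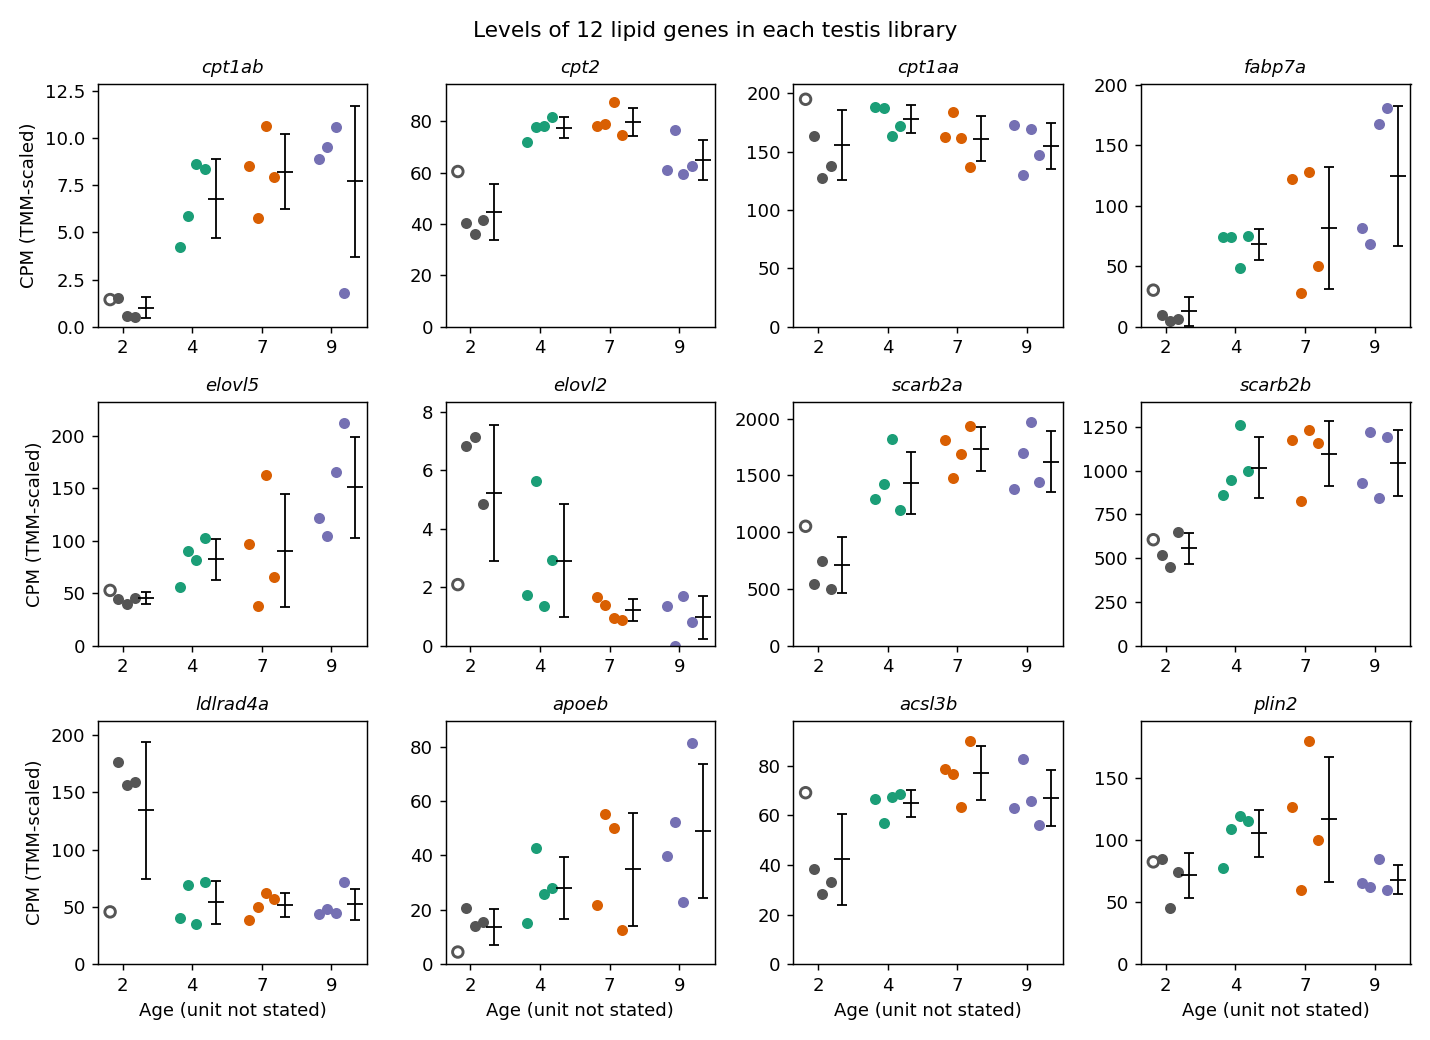
CPM on TMM-scaled library sizes (y axes, linear from 0) of 12 lipid genes against age (x axes, unit not stated); each point is a testis, the open grey circle is age 2 replicate 1, and the black marks are the mean and SD of 4 testes. For cpt1ab, scarb2a and scarb2b all 4 age 2 points lie under all 12 older points, and for ldlrad4a age 2 replicate 1, at 45.7 CPM, lies among the older testes.

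In peroxisomes, acyl-CoA oxidases start the shortening of very long chains. The oxidase-like gene acoxl, whose function is little known, fell by 1.76 ± 0.51 at age 4 and by 1.53 ± 0.51 at age 9 (log2, SE; adjusted p = 0.0304 and 0.0466). Its levels were 1.12, 7.92, 4.66 and 4.51 CPM at age 2 and 2.2, 1.15, 1.02 and 0.975 CPM at age 4, with age 2 replicate 1 inside the age 4 range. At age 7 its change of -0.96 ± 0.49 did not pass. Both calls rested on several libraries: at age 4 the call ended without age 2 replicates 2, 3 or 4 or age 4 replicates 1, 2, 3 or 4 (adjusted p = 0.051 to 0.109), and at age 9 without age 2 replicates 2, 3 or 4 or age 9 replicates 1, 2, 3 or 4 (adjusted p = 0.0691 to 0.175), as well as with no filter on low counts (adjusted p = 0.0676). Without age 2 replicate 1 the falls at ages 4 and 9 had changes of -2.01 and -1.80.

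Among the elongases, 2 that act on polyunsaturated fatty acids moved in opposite directions. The gene elovl5, for an enzyme that lengthens chains of middle length, stood at 52.6, 43.9, 39.6 and 45.6 CPM at age 2, 55.8, 89.7, 81.1 and 102 at age 4, 96.8, 37.4, 163 and 64.9 at age 7 and 122, 104, 166 and 212 at age 9. The age 2 values were close together, all ages 4 and 9 values lay above them, and age 7 spread widely, with replicate 2 below every age 2 testis. It rose by 0.99 ± 0.35 at age 7 and by 1.73 ± 0.36 at age 9 (log2, SE; adjusted p = 0.0465 and 0.00721), and its change of 0.86 ± 0.35 at age 4 did not pass (adjusted p = 0.0904). The age 9 call held without any 1 library. The age 7 call ended without age 2 replicates 2, 3 or 4 or age 7 replicates 1 or 3 (adjusted p = 0.0834 to 0.159), and by limma voom (adjusted p = 0.0583). Without age 7 replicate 3 the change was 0.58, and without age 2 replicate 1 the changes at ages 7 and 9 were 1.15 and 1.86.

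The gene elovl2, whose enzyme lengthens the longest of these chains on the way to docosahexaenoic acid, had 2.08, 6.81, 7.14 and 4.85 CPM at age 2, 1.73, 5.61, 1.36 and 2.93 at age 4, 1.67, 1.4, 0.925 and 0.864 at age 7 and 1.37, 0, 1.69 and 0.816 at age 9. Ages 7 and 9 lay below all age 2 libraries, replicate 1 included, and age 4 overlapped with it. It fell by 2.09 ± 0.65 at age 7 and by 2.39 ± 0.66 at age 9 (log2, SE; adjusted p = 0.0273 and 0.0227), from 277 counts over the 16 libraries and 3 transcripts. The age 7 call ended without age 2 replicates 2, 3 or 4 or age 7 replicates 1, 2, 3 or 4 (adjusted p = 0.0528 to 0.0783), and that at age 9 without age 2 replicates 2 or 3 or age 9 replicate 4 (adjusted p = 0.0519 to 0.0661). Both also ended when transcripts were tested as deposited, without summing over the gene (adjusted p = 0.11 and 0.0653 for the transcript with the smallest p). When age 2 replicate 1 was left out, the changes were -2.26 and -2.60. The other elongases and the 1 desaturase kept did not pass: elovl6, for saturated chains, had 10.3 ± 4.54 CPM (SD, n = 4) at age 2 and 13.4 ± 4.9 at age 9; elovl1a changed by -1.26 ± 0.50 at age 9 (adjusted p = 0.0836); fads6 changed by -1.44 ± 0.59, -1.42 ± 0.60 and -1.11 ± 0.59 (adjusted p = 0.0926, 0.0839 and 0.185).

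Of 8 acyl-CoA synthetase genes tested, acsl3b rose at 1 age and the others did not pass. In mammals ACSL3 sits on the endoplasmic reticulum and on lipid droplets. Its level was 69.1, 38.5, 28.1 and 33.1 CPM at age 2, 66.5, 56.8, 67.4 and 68.7 at age 4, 78.6, 76.5, 63.5 and 90.0 at age 7 and 63.1, 82.5, 65.9 and 56 at age 9. Age 2 replicate 1 lay with the older testes, and the other 3 age 2 libraries lay below all of them. It rose by 0.87 ± 0.24 at age 7 (log2, SE, adjusted p = 0.0179; 1.30 without age 2 replicate 1), and its changes of 0.62 ± 0.24 and 0.66 ± 0.24 at ages 4 and 9 did not pass (adjusted p = 0.0773 and 0.0648). The call ended without age 2 replicates 2, 3 or 4 or age 7 replicate 4 (adjusted p = 0.0509 to 0.0626).

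For acsl2, another long-chain synthetase gene, the levels were 60.1, 10.1, 17.2 and 11.5 CPM at age 2 and between 24.7 and 46.2 CPM in the 12 older testes, so that age 2 replicate 1 lay above all older testes and the other 3 age 2 libraries below them. No age passed. The arachidonate-preferring copies acsl4a and acsl4b stayed under 17 CPM in all libraries, and acsl6 under 3 CPM with 3 libraries at 0. The short-chain synthetase gene acss3 had 7.55, 10.6, 9.99 and 9.47 CPM at age 4, below all age 9 values (14.5, 19.2, 22.7 and 17.8), with a change of 0.98 ± 0.33 from age 4 to age 9 that did not pass over all genes (adjusted p = 0.398).

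Fatty acid binding proteins carry fatty acids through the cytosol. The gene for the brain type, fabp7a, had the largest changes among the lipid genes that passed at age 9. It stood at 30.3, 9.87, 4.52 and 6.52 CPM at age 2, 74.1, 74, 49 and 75.2 at age 4, 122, 27.6, 128 and 50.6 at age 7 and 81.6, 68.2, 168 and 180.2 at age 9. Age 2 replicate 1 was the highest of its age and lay above the lowest age 7 testis, while ages 4 and 9 did not overlap with age 2. It rose by 2.41 ± 0.58, 2.68 ± 0.58 and 3.28 ± 0.60 at the 3 ages (log2, SE; adjusted p = 0.0179, 0.0077 and 0.00433). With age 2 replicate 1 left out, these changes were 3.36, 3.63 and 4.20. The age 4 call ended without age 2 replicates 2, 3 or 4 or age 4 replicate 3 (adjusted p = 0.0566 to 0.063), and those at ages 7 and 9 held without any 1 library.

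The gene for the heart type, fabp3, did not pass: 39.1, 74.9, 54.1 and 43.6 CPM at age 2 and 33.7, 27.4, 36.5 and 18.7 CPM at age 7, where all values lay below age 2 and the change of -0.86 ± 0.32 had an adjusted p = 0.0562. That was the lowest adjusted p among the 29 genes without a call. For fabp4a, the adipocyte type of mammals, the changes were 0.79 ± 0.35, 0.67 ± 0.35 and 0.91 ± 0.35 (adjusted p = 0.116, 0.164 and 0.0817). Age 2 replicate 1, at 76.0 CPM, lay among the older testes, which had 48.0 to 93.0 CPM. The other age 2 testes lay below all of these, at 18.4 to 46.0 CPM. The lipid droplet coat gene plin2 had 78, 109, 119 and 116 CPM at age 4, 127, 60.3, 180.1 and 100.3 at age 7 and 65.3, 62.7, 85.2 and 59.6 at age 9, and it did not pass against age 2. Of the adipocyte markers, aqp7 was at 0 in all 16 libraries and cidec in 12, and the summed level of the 7 markers was 94.9 CPM in age 2 replicate 1, 49.9 to 65.5 CPM in the other age 2 testes and 71.9 to 109 CPM in the older ones. Most of this difference was rbp4, at 73.1 CPM in that library, 26.9 to 31.4 in the others of its age and 49.3 to 87.4 in the older ones. At low levels lepa split likewise. For pparg, cebpa and rbp4l the other age 2 testes overlapped with the older ones. Whether fat tissue took part in the levels of fabp4a and plin2 was not tested.

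Apolipoproteins are the protein part of lipoproteins and are made mostly in the liver, with apolipoprotein E also made by macrophages. Of 6 tested, apoeb rose at age 9, and the rest did not pass. Its level was 4.49, 20.7, 14.1 and 15.4 CPM at age 2, 15.3, 42.6, 25.9 and 28.1 at age 4, 21.9, 55.2, 50.0 and 12.6 at age 7 and 39.8, 52.2, 23 and 81.3 at age 9, and age 2 replicate 1 was the lowest of all 16 libraries. All age 9 testes lay above all age 2 ones, while ages 4 and 7 overlapped with age 2. The rise at age 9 was 1.84 ± 0.52 (log2, SE, adjusted p = 0.0256), and the changes of 1.03 ± 0.51 and 1.35 ± 0.52 at ages 4 and 7 did not pass. In a fit lacking age 2 replicate 1, the change at age 9 was 1.60. The call ended without age 2 replicate 3 or age 9 replicates 2 or 4 (adjusted p = 0.0539 to 0.0675). Macrophage markers also rose against age 2: of 12 tested, 6 (50%), 5 (41.7%) and 10 (83.3%) rose and 0 fell at ages 4, 7 and 9. Over all genes 6.66%, 11.5% and 6.82% rose. The summed level of 17 macrophage markers was 750 to 886 CPM in the 3 other age 2 testes, 1112 CPM in replicate 1, 925 to 1497 CPM at age 4, 840 to 1421 CPM at age 7 and 1443 to 2375 CPM at age 9. The genes with the highest levels in this sum were aif1l and cd68, and its genes did not move alike in age 2 replicate 1. There aif1l was at 729 CPM, against 306 to 368 CPM in the other age 2 testes, and cd68 at 303 CPM, against 351 to 451 CPM. In that library csf3r, lcp1, marco and ptprc also lay above the other age 2 testes. By contrast, c1qa, c1qb, c1qc, csf1rb, mpeg1.1, spi1a and timd4 lay below them there, as cd68 did. The part of macrophages in the apoeb change was not tested.

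The second copy, apoea, stayed between 4.01 and 13.4 CPM, with changes of 0.14 ± 0.31, -0.077 ± 0.31 and 0.12 ± 0.31. The gene apoc1, for a small exchangeable apolipoprotein, had 0.641, 8.48, 4.23 and 1.84 CPM at age 2 and 14.7, 7.33, 19.3 and 7.84 CPM at age 9, a change of 1.68 ± 0.72 that did not pass (adjusted p = 0.107). Levels of apoa4a were 13.8 ± 7.05 CPM (SD, n = 4) at age 2 and 22.8 ± 4.96 CPM at age 7, a change of 0.72 ± 0.32 that did not pass. Those of apoba and apom ranged from 4.54 to 19.9 and from 0.349 to 6.41 CPM. Plasma protein genes of the liver, 21 in the tables, summed to 32.0 to 60.9 CPM over all libraries, with itih2 at 0 throughout.

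The genes named for lipoprotein receptors took the largest share of the set's fragments, and the 2 that held it, scarb2a and scarb2b, are not known as plasma lipoprotein receptors. In mammals the scarb2 product, LIMP-2, is a membrane protein of the lysosome that carries glucocerebrosidase there. The level of scarb2a was 1051, 546, 741 and 502 CPM at age 2, 1289, 1419, 1820.0 and 1198 at age 4, 1810.1, 1479.9, 1688 and 1935 at age 7 and 1377, 1696, 1965 and 1444 at age 9. For scarb2b it was 605, 517, 449 and 649 CPM at age 2, 861, 948, 1262 and 998 at age 4, 1173, 825, 1233 and 1159 at age 7 and 926, 1219, 842 and 1191 at age 9. In both, all 4 age 2 testes lay below all 12 older ones. With cpt1ab they were the 3 of 43 lipid genes (6.98%) of which that was so, against 1.46% of all genes tested, and 0 lay above all older testes, against 1.73%. For cpt1ab that separation rests on 11 counts each in age 2 replicate 2 and age 9 replicate 4. When age 2 replicate 1 was left out, the counts of such genes were 12 (27.9%, against 16.2%) below and 4 (9.3%, against 17.3%) above, the latter acoxl, acsl6, fads6 and ldlrad4a. The 12 included acadvl, acsl2, fabp4a and ldlrad2, which had no call with all libraries. Shares of this kind are description only. Some of the genes, cpt1ab among them, met the count limit through the testes where they are high.

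The rise of scarb2a was 1.01 ± 0.23, 1.28 ± 0.23 and 1.19 ± 0.23 at ages 4, 7 and 9 (log2, SE; adjusted p = 0.0167, 0.00539 and 0.00585). That of scarb2b was 0.87 ± 0.20, 0.98 ± 0.20 and 0.91 ± 0.20 (adjusted p = 0.0167, 0.00669 and 0.00906). With age 2 replicate 1 left out, the changes were 1.34, 1.62 and 1.50 for scarb2a and 0.99, 1.11 and 1.0 for scarb2b. At ages 7 and 9 both held without any 1 library; at age 4 the call of scarb2a ended without age 2 replicates 2, 3 or 4 or age 4 replicate 3 (adjusted p = 0.0537 to 0.0618) and that of scarb2b without age 2 replicates 2 or 3 or age 4 replicate 3 (adjusted p = 0.0502 to 0.0618). The third copy, scarb2c, did not pass: it stood at 52.9, 91.9, 125 and 132 CPM at age 2, 69.2, 60.6, 95 and 66.3 at age 7 and 75.1, 102, 119 and 190.3 at age 9, with changes of -0.39 ± 0.30, -0.46 ± 0.30 and 0.28 ± 0.30.

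The LDL receptor, which takes up cholesterol-rich lipoproteins, has 2 copies here. For ldlra the levels were 8.34, 25.3, 25.9 and 22.2 CPM at age 2 and 5.34, 9.78, 7.56 and 3.63 CPM at age 7, a fall of 1.63 ± 0.58 (log2, SE, adjusted p = 0.0469), with age 2 replicate 1 inside the age 7 range; it ended without age 2 replicates 2, 3 or 4 or age 7 replicates 1, 2, 3 or 4 (adjusted p = 0.0563 to 0.13). It also ended with the size factors of DESeq2, with no filter on low counts and with ribosomal RNA genes left out (adjusted p = 0.0526, 0.0633 and 0.0534), and without age 2 replicate 1 the change was -1.80. At ages 4 and 9 its changes of -0.95 ± 0.57 and -0.89 ± 0.57 did not pass, and in each of these ages replicate 4 lay near the other 3 age 2 testes, at 23.5 and 21.7 CPM. The copy ldlrb ranged from 15.6 to 156 CPM, with the highest value in age 7 replicate 3, and did not pass. The adaptor gene ldlrap1b, whose mammalian product links the LDL receptor to clathrin for endocytosis, rose at age 9 by 0.93 ± 0.31 (adjusted p = 0.0487), from 89.6, 50.7, 39.1 and 42.3 CPM to 83.4, 128, 78.8 and 132 CPM. Age 2 replicate 1 lay within the age 9 range, and without it the change was 1.31. The call ended without age 2 replicates 2, 3 or 4 or age 9 replicates 1, 2, 3 or 4 (adjusted p = 0.0541 to 0.141). It also ended with the size factors of DESeq2, with no filter on low counts and with ribosomal RNA genes left out (adjusted p = 0.0502, 0.0566 and 0.0586).

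The gene ldlrad4a carries an LDL receptor class A domain in its name, but its mammalian counterpart is known for damping TGF-beta signals rather than for lipid uptake. It stood at 45.7, 177, 156 and 159 CPM at age 2, 40.3, 69, 35.2 and 71.7 at age 4, 38.2, 50.1, 61.8 and 57 at age 7 and 44.1, 48.2, 44.6 and 71.7 at age 9. The other 3 age 2 testes lay far above all older ones, and replicate 1 lay among the older ones. It fell by 1.31 ± 0.35, 1.38 ± 0.36 and 1.37 ± 0.35 at the 3 ages (log2, SE; adjusted p = 0.0243, 0.0136 and 0.0181). In a fit lacking age 2 replicate 1, these changes were -1.53, -1.57 and -1.60. The age 4 call ended without age 2 replicates 2, 3 or 4 or age 4 replicates 1 or 3 (adjusted p = 0.0724 to 0.0815), and the age 9 call without age 2 replicates 2 or 3 or age 9 replicates 1, 2 or 3 (adjusted p = 0.0526 to 0.0617). For ldlrad4b, at 39.6, 39.2, 39.8 and 41.5 CPM at age 2 and 31.4, 25.9, 27.1 and 23.1 CPM at age 4, all values of age 4 lay below those of age 2, and the change of -0.57 ± 0.22 did not pass (adjusted p = 0.0692). The gene ldlrad2 had 4.03 ± 3.3 CPM (SD, n = 4) at age 2 and 8.68 ± 2.16 CPM at age 9 and did not pass (adjusted p = 0.0793). It was at 8.82 CPM in age 2 replicate 1, 1.67 to 3.64 in the other age 2 testes and 4.16 to 11.3 in the older ones.

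**Figure D3:**
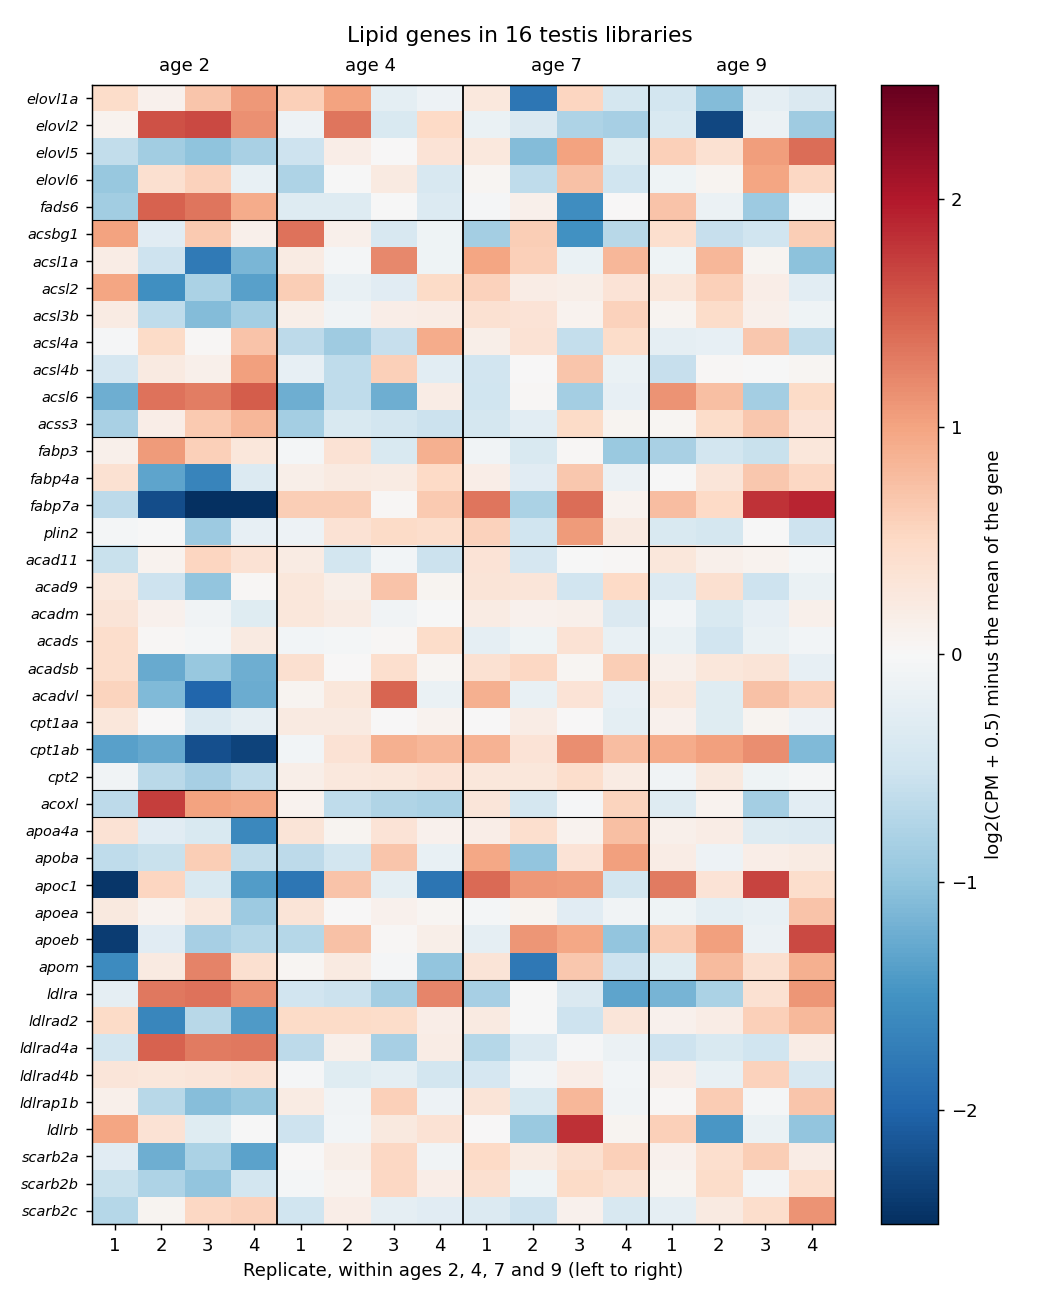
Log2(CPM + 0.5) of 42 of the 43 tested lipid genes (rows, lines between roles) in the 16 testes (columns, replicates 1 to 4 within ages 2, 4, 7 and 9), each minus the mean of its gene; colours end at 2.5 on either side. In the rows of ldlrad4a, acsl3b and acadsb the first age 2 column has the colour of the older ages, while cpt1ab is blue in all 4 age 2 columns.

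Copies of 1 gene did not always move alike, which was compared with a test added after the values were seen. In each library the log2 ratio of 2 copies was taken from CPM + 0.5, and its mean over the 12 older testes was set against the 4 age 2 testes by an exact two-sided permutation test over 1820 splits, adjusted over 8 pairs. The ratio itself also depends on transcript length, so only its difference between ages is read. A change with age in the transcripts used, or in fragments lost as ambiguous, cannot be told apart from a change in level. This bears on cpt1ab, with all counts on 1 of its 5 transcripts. For cpt1aa over cpt1ab it was 6.74 ± 0.33 (log2, SD, n = 4) at age 2 and 4.45 ± 0.68 (SD, n = 12) in the older testes, without overlap. The difference was -2.29 (exact permutation p = 0.0011, the smallest these splits can give, adjusted p = 0.00879), -2.32 without age 2 replicate 1, and it passed without any 1 library.

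For scarb2a over scarb2c the ratio was 2.84 ± 1.02 at age 2 and 4.20 ± 0.51 in the older testes, a difference of 1.36 (exact permutation test, adjusted p = 0.0293). For scarb2b over scarb2c it was 2.53 ± 0.70 and 3.60 ± 0.47, a difference of 1.07 (exact permutation test, adjusted p = 0.0293). In both, age 2 replicate 1 lay among the older testes, and without it the differences were 1.85 and 1.39. Both calls ended without age 2 replicate 2, 3 or 4 (adjusted p up to 0.105). The remaining 5 pairs did not pass. For apoea over apoeb the difference was -1.30 (exact permutation test, adjusted p = 0.0747), and it passed only without age 4 replicate 1 (adjusted p = 0.041). For ldlrad4a over ldlrad4b it was -0.79 (exact permutation test, adjusted p = 0.0932), and it passed only without age 2 replicate 1 (-1.24, adjusted p = 0.00879). The ratios of ldlra to ldlrb, scarb2a to scarb2b and acsl4a to acsl4b differed by -0.86, 0.29 and -0.076 (exact permutation test, adjusted p = 0.295, 0.259 and 0.868).

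**Figure D4:**
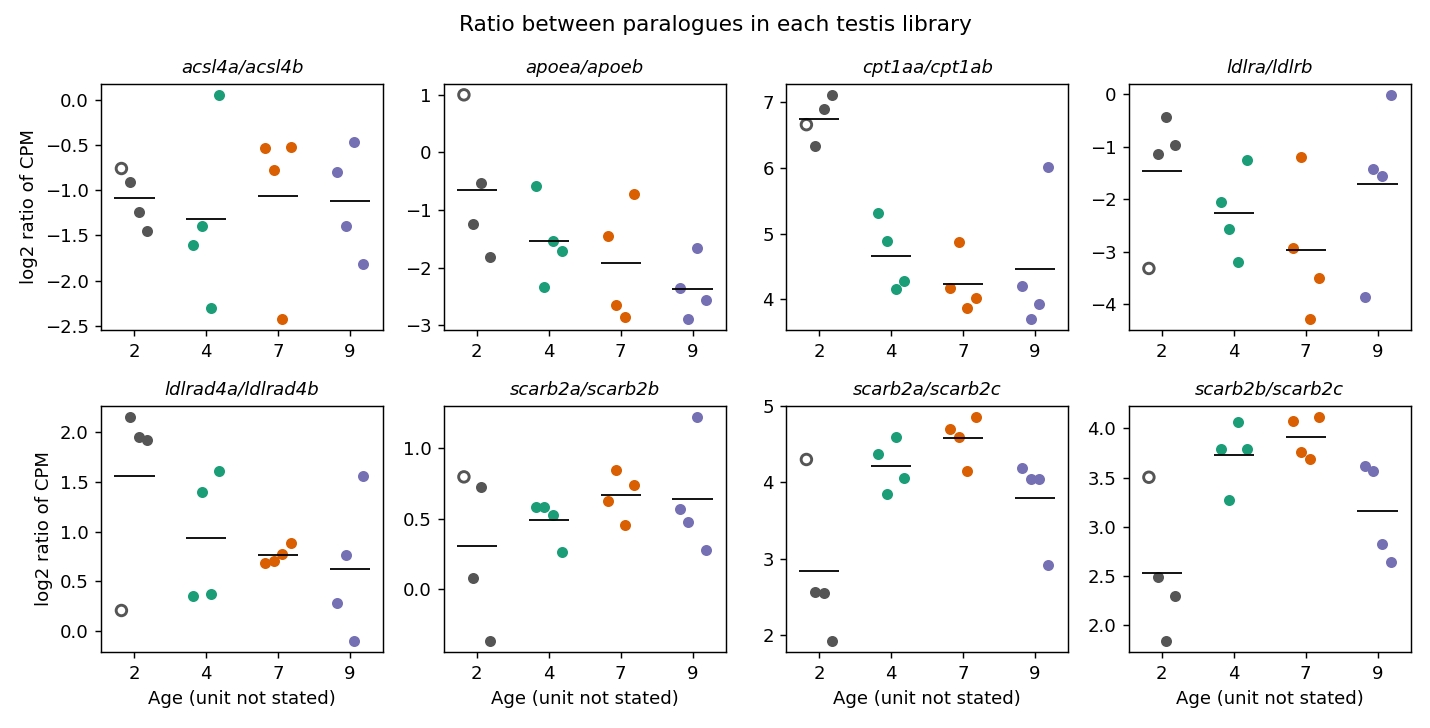
Log2 ratio of CPM + 0.5 (y axes) between 2 copies of a gene in each testis against age (x axes, unit not stated); the open grey circle is age 2 replicate 1 and lines are the means of 4 testes. In the panel of cpt1aa over cpt1ab the 4 age 2 testes lie between 6.33 and 7.10, all above the 12 older ones, at 3.70 to 6.01.

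Among ages 4, 7 and 9 no lipid gene passed in any of the 3 comparisons by edgeR, DESeq2 or limma voom. By edgeR, 0.0125% of all genes passed between ages 7 and 4 and 0% in the other 2 comparisons. The DESeq2 Wald test passed 0.0876%, 0.695% and 0.469% of all genes for 7 against 4, 9 against 4 and 9 against 7. By limma voom these shares were 0%, 0.544% and 1.48%. No lipid gene was without overlap between ages 7 and 4 (2.87% of all genes) or ages 9 and 7 (6.2%). Across all genes, the share with an unadjusted p under 0.05 was not counted, so the next counts are description only. There were 0 lipid genes under that threshold between ages 7 and 4, 6 between ages 9 and 4 and 2 between ages 9 and 7. In the 9 against 4 comparison these were acss3, elovl5, elovl2, scarb2c, plin2 and apoc1, and 3 of the 43 genes (6.98%, against 8.54% of all genes) did not overlap between these ages, acss3 and elovl5 higher and acads lower at age 9. For elovl5 the change from age 4 to age 9 was 0.87 ± 0.35 (log2, SE, adjusted p = 0.479). For plin2 the change from age 7 to age 9 was -0.78 ± 0.29 (adjusted p = 0.594), and for scarb2c it was 0.74 ± 0.30 (adjusted p = 0.652). Against age 2 the ages did not overlap for 7 of 43 genes at age 4 (16.3%, against 9.41% of all genes), 7 at age 7 (16.3%, against 15.1%) and 10 at age 9 (23.3%, against 15.1%).

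Other genes of lipid metabolism, in lists that hold none of the genes above, were read from the same fit. Beside them, all genes tested had the shares given above: 6.66%, 11.5% and 6.82% higher and 12%, 15.9% and 11.5% lower at ages 4, 7 and 9. When age 2 replicate 1 was left out, these shares were 23.3%, 24.2% and 21.7% higher and 22.3%, 23.6% and 20.6% lower. The 19 genes tested of mitochondrial beta-oxidation and carnitine transport had 5 higher (26.3%) and 0 lower at age 4, 5 higher and 1 lower (5.26%) at age 7, and 3 higher (15.8%) and 0 lower at age 9. Their median log2 fold changes were 0.62, 0.57 and 0.32, beside -0.046, -0.079 and -0.031 over all genes. The carnitine acetyltransferase gene crata rose by 2.07 ± 0.58, 1.86 ± 0.58 and 1.73 ± 0.58 (log2, SE), and the enoyl-CoA hydratase gene echs1 rose by 1.42 ± 0.38 at age 4 and 1.36 ± 0.38 at age 7. The acetyl-CoA acetyltransferase gene acat1 rose by 1.29 ± 0.41 and 1.54 ± 0.42 at these ages, and pcca, for a subunit of propionyl-CoA carboxylase, by 0.62 ± 0.19, 0.81 ± 0.19 and 0.58 ± 0.19 at ages 4, 7 and 9. At age 7 decr1, for the dienoyl-CoA reductase that handles unsaturated chains, fell by 0.86 ± 0.29. Levels of crata, echs1, acat1 and decr1 at the ages called overlapped with age 2, and those of pcca lay above it. With age 2 replicate 1 left out, 13 of the list were higher at each age and 1, 1 and 0 lower, where calls over all genes were also more frequent, as given above. The changes were then 3.20, 3.01 and 2.84 for crata, 2.23 and 2.18 for echs1, 2.19 and 2.46 for acat1, 0.80, 1.01 and 0.74 for pcca and -0.88 for decr1 at the ages named.

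Genes of lipolysis and the lipid droplet had 2, 4 and 2 of 14 higher (14.3%, 28.6% and 14.3%) and 0 lower at ages 4, 7 and 9, with medians of -0.081, -0.13 and 0.067. They included the triglyceride lipase gene pnpla2, which rose by 0.84 ± 0.21 at age 7, and its inhibitor g0s2, which rose by 1.30 ± 0.40, 1.55 ± 0.40 and 1.37 ± 0.40. The lipase gene lipf rose by 0.79 ± 0.20, 0.75 ± 0.20 and 0.92 ± 0.20. For all 3 genes the ages called did not overlap with age 2, though g0s2 was low, at 2.53 ± 0.73 CPM (SD, n = 4) at age 2 and 6.26 ± 1.58 CPM at age 4. In a fit lacking age 2 replicate 1, the list had 3, 5 and 3 higher and 3, 2 and 1 lower, and the changes were 1.06 for pnpla2, 1.50, 1.78 and 1.55 for g0s2 and 0.97, 0.95 and 1.08 for lipf.

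Genes of fatty acid uptake and cholesterol transport, 19 tested, had 1, 1 and 0 higher (5.26%, 5.26% and 0%) and 5, 4 and 3 lower (26.3%, 21.1% and 15.8%) at ages 4, 7 and 9, with medians of -0.42, -0.27 and -0.24. Calls over all genes were also lower more often than higher at each age. When age 2 replicate 1 was left out, the list had 4 higher at each age and 8, 7 and 7 lower. The fatty acid transport and activation gene slc27a2a fell by 1.73 ± 0.47, 2.09 ± 0.48 and 1.74 ± 0.47, and mttp, whose product loads lipid onto apolipoprotein B, by 1.31 ± 0.41, 1.23 ± 0.41 and 1.41 ± 0.41. The endocytic receptor gene lrp2a fell by 1.40 ± 0.33, 0.92 ± 0.33 and 1.23 ± 0.33, and lrp1aa fell by 0.93 ± 0.24 at age 4. At the ages called, slc27a2a, mttp and lrp1aa overlapped with age 2, and lrp2a did so at age 7 only. With age 2 replicate 1 left out, the changes were -1.99, -2.34 and -2.02 for slc27a2a, -1.50, -1.41 and -1.63 for mttp, -1.53, -1.03 and -1.37 for lrp2a and -0.93 for lrp1aa. Of 8 Sertoli cell markers tested, 2 (25%), 2 and 1 (12.5%) fell at ages 4, 7 and 9 and 0 rose, and the share at age 9 was near that of all genes. Of 11 spermatogonia markers 5 (45.5%) fell at each age and 0, 1 and 2 rose. Of 7 kidney and gut epithelium markers 2 (28.6%), 3 (42.9%) and 3 fell and 0 rose. Without age 2 replicate 1, 3, 3 and 2 Sertoli cell markers were lower and 0 higher. Spermatogonia markers then had 6 lower at each age and 2, 3 and 2 higher. Kidney and gut markers had 3 lower at each age and 1, 1 and 2 higher. The part of these cell types was not tested.

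In fatty acid and triglyceride synthesis 1, 3 and 2 of 21 genes were higher (4.76%, 14.3% and 9.52%) and 2, 3 and 2 lower (9.52%, 14.3% and 9.52%), near the shares of all genes (5 higher at each age and 4, 5 and 4 lower without age 2 replicate 1). The malonyl-CoA decarboxylase gene mlycd, whose enzyme removes the inhibitor of CPT1, fell by 1.04 ± 0.23, 1.18 ± 0.23 and 0.99 ± 0.23. The acyltransferase gene agpat2, of phosphatidic acid synthesis, rose by 1.14 ± 0.30, 1.09 ± 0.30 and 0.95 ± 0.30, and the elongation cycle dehydratase gene hacd1 fell by 0.67 ± 0.23 at age 7 and 0.91 ± 0.23 at age 9. Each age called overlapped with age 2 for agpat2, only age 9 did for mlycd, and neither did for hacd1. In a fit lacking age 2 replicate 1, the changes were -1.16, -1.29 and -1.13 for mlycd, 1.76, 1.72 and 1.55 for agpat2 and -0.68 and -0.96 for hacd1. Cholesterol synthesis had 2, 3 and 0 of 12 genes higher (16.7%, 25% and 0%) and 0 lower (6, 4 and 1 higher without age 2 replicate 1), among them mvk (mevalonate kinase, 1.32 ± 0.43 at age 4) and sc5d (a sterol desaturase, 1.14 ± 0.34 at age 4), with 1.52 and 1.68 without that library. Age 4 overlapped with age 2 for sc5d and not for mvk, which was low, at 2.03 ± 0.89 CPM (SD, n = 4) at age 2 and 5.07 ± 0.81 CPM at age 4.

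Peroxisomal lipid oxidation had 0 genes passing of 13 at age 4, 1 higher (7.69%) and 2 lower (15.4%) at age 7 and 0 at age 9 (0, 2 and 1 higher and 2, 2 and 1 lower without age 2 replicate 1). At age 7 the peroxisome assembly gene pex14 rose by 1.01 ± 0.30, the sterol carrier gene scp2a fell by 0.62 ± 0.17 and the catalase gene cat fell by 0.96 ± 0.32 (changes of 1.30, -0.56 and -1.13 without age 2 replicate 1). Of 17 lipid regulators 0 were higher and 1 (5.88%), 1 and 0 lower (2, 1 and 1 higher and 3, 2 and 2 lower without age 2 replicate 1): the retinoid X receptor gene rxraa fell by 1.77 ± 0.40 at age 4, and the coactivator gene ppargc1b fell by 1.15 ± 0.40 at age 7 (changes of -2.03 and -1.31 without that library). The sterol sensor gene scap, named by the same rule, changed by 0.59 ± 0.23 at age 7 and did not pass (adjusted p = 0.063), and by 0.91 without age 2 replicate 1. Of 17 sperm tail markers tested, 4, 6 and 3 rose (23.5%, 35.3% and 17.6%) and 2 fell (11.8%) at ages 4, 7 and 9. Their median log2 fold changes were 1.64, 2.03 and 1.49. When age 2 replicate 1 was left out, 14, 14 and 13 of these markers were higher and 2 lower at each age. Their part in the changes of the lists was not tested.

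Of the 73 symbols, 29 stayed under the limit of 10 counts in 4 libraries, and 9 of these had no count in any library: acsbg2, acss2l, apobb.1, apoda.1, cpt1a2b, cpt1b, elovl4a, ldlrad3 and the lipoprotein lipase gene lpl. Among the other 20 were the HDL receptor gene scarb1, the liver binding protein gene fabp10a and apoa1a. Just inside the limit were acsl1b and acsl6, with 4 libraries each, and just outside it elovl7a and fabp4b, with 3 each. Of the genes kept, 33 had 10 or more counts in all 16 libraries and 11 in fewer. Counting was done per transcript, and 12 of the 44 genes kept and 18 of the 29 not kept had more than 1 transcript. Fragments shared by transcripts of a gene can be lost as ambiguous in such counting, and a low count of these genes is therefore less certain. Each of the 9 genes without a count had from 2 to 8 transcripts, so their counts of 0 are not read as absence of expression.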

How the data were processed

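Per the labels, total RNA of 16 blue catfish testes (Zymo Quick-RNA kit, DNase I) went into libraries by the NEBNext Ultra II RNA kit. The authors deposited raw counts per transcript, 50072 transcripts and 5 summary lines in each of 16 tables. The submitters' processing notes name STAR 2.7.5 and HTSeq 0.11.1, beside Trimmomatic 0.39, edgeR 4.4.2, FastQC 0.11.9 and MultiQC 1.10.1. The settings, build and strand mode were not given in the sources used here. Therefore overlapping and antisense genes cannot be told apart and genome positions were not used here. The summary lines, which include ambiguous fragments (22.8% to 29.4%), held 65.2% to 76.2% of fragments and were left out.

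Counts were summed by the symbols in the tables; 48916 transcripts matched a RefSeq table of the assembly Billie_1.0. Genes were filtered with filterByExpr (minimum count 10, total 15), scaled by TMM (factors 0.773 to 1.13) and tested two-sided with edgeR 4.0.16 in R 4.3.3 (quasi-likelihood, robust, 1 model of 16 libraries by age, 12 residual degrees of freedom, biological coefficient of variation 0.417), with Benjamini-Hochberg adjustment over all genes at 0.05. The labels call the replicates biological, and no 2 libraries of an age were duplicates (chi-square divided by its degrees of freedom was 11.2 to 134). Libraries of different ages were not compared in this way. Paralogue ratios and figures used scipy 1.17.1 and matplotlib 3.10.9 in python 3.11.15, with pandas 2.3.3 and numpy 2.4.6. The procedure was tested on simulated counts. Alternatives were the size factors and Wald test of DESeq2 1.42.0, limma 3.58.1 voom with sample quality weights, no filter, a replicate block, 2 ages alone, transcripts as deposited, no ribosomal RNA genes and each library left out.

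The genes, the lists of other lipid genes and the cell type markers were chosen with earlier results of these data known. Named were all lipid genes past the threshold, the 2 with the highest mean CPM in each role and, in each list, the 3 genes with the smallest p against age 2; other genes were named after their values were seen. The values of 2 genes that this rule covers are not reported here, and figures leave out 1 of them.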

Additional observations from a re-analysis of the deposited data

Results flagged for a closer look

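In each age of 4 testes the highest or lowest CPM was compared with its nearest neighbour (Dixon's test). Of 172 groups of 43 genes and 4 ages, 17 (9.88%) held a library whose gap to the nearest one, as a share of the group's range, exceeded Dixon's critical value. Chance flags about 1 in 20 groups where values are normally distributed, which was not checked for CPM. The share over all genes was not counted, so 9.88% is not read as a trait of the lipid genes. At age 2, replicate 1 was set apart for 3 genes, with acadsb at 59.6 CPM, acsl2 at 60.1 CPM and ldlrad4a at 45.7 CPM; for acadsb and ldlrad4a that testis lay within the range of the older ones, and for acsl2 above all of them. Replicate 3 stood out once at age 2, with apoba at 14.7 CPM. At age 4, replicate 4 was flagged for acads at 23.7 CPM, acsl4a at 6.69 CPM, ldlra at 23.5 CPM and ldlrad2 at 6.96 CPM. Also at age 4, replicate 3 was flagged for acsl1a at 7.96 CPM, fabp7a at 49.0 CPM and fads6 at 1.86 CPM, and replicate 1 for acoxl at 2.20 CPM. The only flag at age 7 was fads6 in replicate 3, at 0.308 CPM. At age 9, acsl4b in replicate 1 was at 5.13 CPM, apoba in replicate 2 at 8.61 CPM, and replicate 4 had apoea at 13.4 CPM and ldlrad4a at 71.7 CPM. The cause of these values was not tested.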

How the results depend on the processing

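The counts of lipid genes called against age 2 (7, 11 and 11 at ages 4, 7 and 9) moved with the tool and with the libraries used. They were 23, 26 and 21 by limma voom with sample quality weights (49.3%, 53.8% and 48.9% of all genes passed) and 0, 4 and 5 when fitted on 2 ages alone (0%, 5.44% and 6.62%). The DESeq2 Wald test called 17 at age 7 (33.2%). Leaving out 1 library each gave 0 to 21, 6 to 24 and 5 to 19, with the highest counts without age 2 replicate 1. The comparisons among ages 4, 7 and 9 kept 0 calls of lipid genes under each alternative. Whether the replicate numbers mark a pairing or a batch was not settled. The 24 correlations of same-numbered libraries lay between -0.22 and 0.41, and 7 of 16 libraries were best matched by their own number. A fit with the replicate block called 8, 12 and 9 genes (20%, 27.8% and 17.5% of all genes), without elovl5 at age 7 and cpt2, acoxl and ldlrap1b at age 9. Over the 29 calls of named genes, direction did not reverse in any alternative; 143 of the fits without 1 library kept the call and 89 did not, as did 196 and 36 of the other fits. The calls of cpt1ab, scarb2a and scarb2b at ages 7 and 9 and of fabp7a and elovl5 at age 9 held in all 16 alternatives. Without 1 library the paralogue differences, an analysis added after seeing the data, ranged from -2.43 to -2.17 for cpt1aa over cpt1ab, 1.06 to 1.85 for scarb2a over scarb2c, 0.84 to 1.39 for scarb2b over scarb2c, -1.68 to -0.75 for apoea over apoeb, -1.24 to -0.59 for ldlrad4a over ldlrad4b, -1.47 to -0.51 for ldlra over ldlrb, 0.065 to 0.45 for scarb2a over scarb2b and -0.196 to 0.038 for acsl4a over acsl4b; a pseudocount of 1 CPM changed no call. Low counts limit cpt1ab, elovl2, acoxl and acadvl. The cause of the moves was not tested.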
